A study of Mus musculus with 8 samples.

Results

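The skeletal muscle genes described here are 35 genes that encode the contractile apparatus of the muscle fibre, its calcium handling proteins and its energy and oxygen supply. They were chosen by name. Every non-control probe whose annotated gene symbol was 1 of the 35 names was taken, which gave 67 of the 56605 mouse probes on the array, and 54 of these were among the 31912 probes bright enough to test. All 35 genes had a tested probe, 19 of them had 1 probe in all, and the most probes for a gene was 6. The rule itself uses names and no measured value.

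The CT26 line was derived from a colon carcinoma of the BALB/c mouse. In all 4 groups 500000 CT26 cells were implanted under the skin of the flank, and the mice were treated for 2 weeks once the tumors had formed. The groups received vehicle, daily oral TP-16 at 75 mg/kg (named BY001 in the labels), intraperitoneal anti-PD-1 antibody at 50 µg per mouse in 2 doses a week, or the combination of these agents. TP-16 antagonises EP4, through which prostaglandin E2 signals, and the antibody blocks PD-1, which restrains T cells. The methods describe female mice of 6 to 10 weeks, and total tumor tissue was taken. Each group has 2 samples, and the sources used here do not say whether a sample is 1 tumor or several. The p-values therefore measure the spread between these samples.

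Skeletal muscle fibres contract when myosin heads on the thick filament pull on actin in the thin filament. Calcium released from the sarcoplasmic reticulum opens the thin filament to myosin through troponin and tropomyosin, and a pump returns the calcium afterwards. Fast and slow fibres use different isoforms of myosin, troponin and the calcium proteins, so the transcripts of a muscle also tell its fibre types. Skeletal muscle is not part of a colon carcinoma, but a sheet of skin muscle and the body wall muscles lie close to a tumor of the flank. In bulk tissue, fewer muscle fibres and less RNA per fibre cannot be told apart.

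Each gene was read by a 60-base probe. For 6 of the 35 genes the probe that represents the gene spans an exon junction, so that its mm9 interval in the array annotation is longer than the probe. The 5 of these that lie in coding sequence are shown because they read spliced messenger RNA and cover 4 of the roles described below. They are the probes of Ckm (chr7:20002222-20004829, plus strand), Mylpf (chr7:134356749-134356985, plus strand), Actn3 (chr19:4861727-4862212, minus strand), Myl3 (chr9:110671632-110671926, plus strand) and Tnnc1 (chr14:32023360-32023776, plus strand).
Ckm: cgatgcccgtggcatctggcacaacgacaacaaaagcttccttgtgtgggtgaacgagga
Mylpf: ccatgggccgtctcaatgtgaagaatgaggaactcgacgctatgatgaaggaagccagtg
Actn3: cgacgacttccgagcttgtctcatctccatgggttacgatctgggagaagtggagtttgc
Myl3: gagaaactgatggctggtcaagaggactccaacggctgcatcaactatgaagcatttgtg
Tnnc1: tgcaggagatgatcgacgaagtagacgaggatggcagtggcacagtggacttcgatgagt
Members of the same family are close in sequence, so the 35 representative probes were compared with each other. The longest run of bases that 2 of them share, over 595 pairs, was 13 bases, between Atp2a1 and Des. Within families the longest was 12 bases, between the fast myosins Myh4 and Myh2, and 11 bases between the fast and slow troponin T genes Tnnt3 and Tnnt1. Cross-hybridisation to a relative was not measured.

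Myogenic factors such as MyoD and myogenin bind E-boxes, whose letters are CANNTG, and MEF2 and serum response factor bind AT-rich sites near muscle genes. The 250 bases before the start site were read from RefSeq promoters of the GRCm38.p6 assembly for 29 of the 35 genes, in 35 windows. The letters CAGCTG, an E-box that is also counted under CANNTG, were found on either strand in 17 windows (48.6%), against 13.0% of all 32851 windows in the table. CANNTG was in 88.6% of the muscle windows and 66.2% of all windows. The MEF2 motif was in 5 windows (14.3% against 2.92%) and the CArG box of serum response factor in 3 (8.57% against 1.47%). These shares describe letters in the windows and do not show binding. Capitals mark CAGCTG, MEF2 and CArG matches in the 4 windows that follow, shown because they differ in what they hold. Ckm (chr7:19410844-19411093, plus strand) and Mylpf (chr7:127211358-127211607, plus strand) each hold CAGCTG, Myh4 (chr11:67237562-67237811, plus strand) holds all 3 motifs, and Ryr1 (chr7:29125152-29125401, minus strand) holds none of these letters.
Ckm: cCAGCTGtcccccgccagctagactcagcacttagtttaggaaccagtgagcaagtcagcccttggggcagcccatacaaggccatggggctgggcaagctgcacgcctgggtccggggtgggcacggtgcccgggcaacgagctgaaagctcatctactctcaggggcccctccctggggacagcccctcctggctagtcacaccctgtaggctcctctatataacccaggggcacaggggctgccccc
Mylpf: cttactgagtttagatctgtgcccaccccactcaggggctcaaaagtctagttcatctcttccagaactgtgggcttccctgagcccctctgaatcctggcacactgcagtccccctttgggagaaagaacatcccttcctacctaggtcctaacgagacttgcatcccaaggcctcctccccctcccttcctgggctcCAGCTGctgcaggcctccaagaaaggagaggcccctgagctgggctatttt
Myh4: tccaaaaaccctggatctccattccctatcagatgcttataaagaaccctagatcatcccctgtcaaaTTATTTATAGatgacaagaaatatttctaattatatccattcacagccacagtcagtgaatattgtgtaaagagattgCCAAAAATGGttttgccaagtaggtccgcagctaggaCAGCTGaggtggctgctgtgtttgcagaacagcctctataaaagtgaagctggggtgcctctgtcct
Ryr1: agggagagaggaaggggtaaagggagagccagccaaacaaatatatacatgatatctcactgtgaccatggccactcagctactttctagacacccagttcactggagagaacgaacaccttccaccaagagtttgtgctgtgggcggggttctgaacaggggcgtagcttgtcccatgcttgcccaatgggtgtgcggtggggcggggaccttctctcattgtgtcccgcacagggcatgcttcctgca

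All arrays were of 1 colour and shared 1 slide and 1 scan, with vehicle and TP-16 in slide row 1 and anti-PD-1 and combination in slide row 2. Slide row and antibody cannot be told apart, nor can slide column and TP-16. Between 51.4% and 59.7% of all probes were well above background on an array, the scanner's own mark, against 73.1% to 86.6% of the muscle probes. Of 280 muscle gene spots, taking the representative probe of each gene on each array, 0 were saturated. Levels are on the log2 scale with the 75th percentile of each array at 0, so that 1 unit is a 2-fold difference. For genes with more than 1 probe, the brightest by its mean over the 8 arrays represents the gene. That probe was well above background on all 8 arrays for 32 of the 35 genes, the exceptions being Myl2, Neb and Xirp2. Probes differ in their response, so values compare arrays for a gene and not genes with each other. As a check of the labelled tissue, chosen after the values were seen, the epithelial genes Krt8, Krt18 and Cdh1 were well above background on all 8 arrays, Cdx2 on 4, Epcam on 1 and Vil1 on 0.

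The muscle genes were measured on every array, and the 2 samples of vehicle, and those of anti-PD-1, differed more from each other than the group means did. The mean over the 35 genes was -0.96 and 0.28 in the 2 vehicle samples, 0.082 and 0.10 under TP-16, 0.45 and -0.38 under anti-PD-1, and 0.11 and 0.085 under the combination. Vehicle sample 1 was the lowest of the 8 and anti-PD-1 sample 1 the highest, a 2.66-fold range. The TP-16 and combination samples lay together, between the extremes of the other samples.

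**Figure D1:**
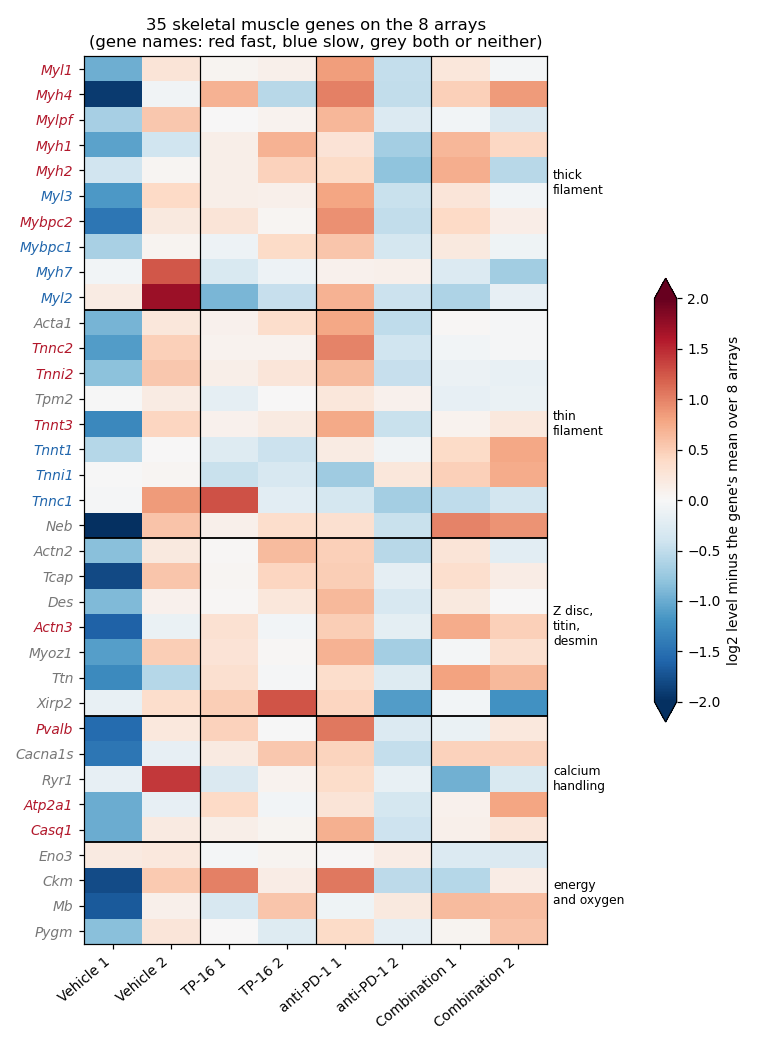
Log2 intensity of each of the 35 skeletal muscle genes (rows, ordered by role) on each of the 8 arrays (columns, 2 per group), after subtracting the gene's own mean over the 8 arrays; the colour scale is in log2 units. Vehicle sample 1 is the lowest array for 26 of the 35 genes and anti-PD-1 sample 1 the highest for 16.

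All 35 genes were higher in vehicle sample 2 than in vehicle sample 1, by 0.036 to 3.37 with a median of 1.23, or 2.35-fold. The difference was past 2-fold for 23 of the 35 (65.7%), against 11% of all 21497 genes. Under anti-PD-1, 31 of the 35 were lower in sample 2 than in sample 1, with a median of -0.96, and 16 (45.7%) were past 2-fold against 3.44% of all genes. Under TP-16 the median difference between the 2 samples was 0.095 and under the combination -0.025. In each of these groups 2 of the 35 genes (5.71%) were past 2-fold, near the 6.6% and 4.01% of all genes. Vehicle sample 1 was the lowest array for 26 of the 35 genes and for 15.2% of all genes. Anti-PD-1 sample 2 was the second lowest for 20 of them, and anti-PD-1 sample 1 the highest for 16, against 4.88% of all genes.

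**Figure D2:**
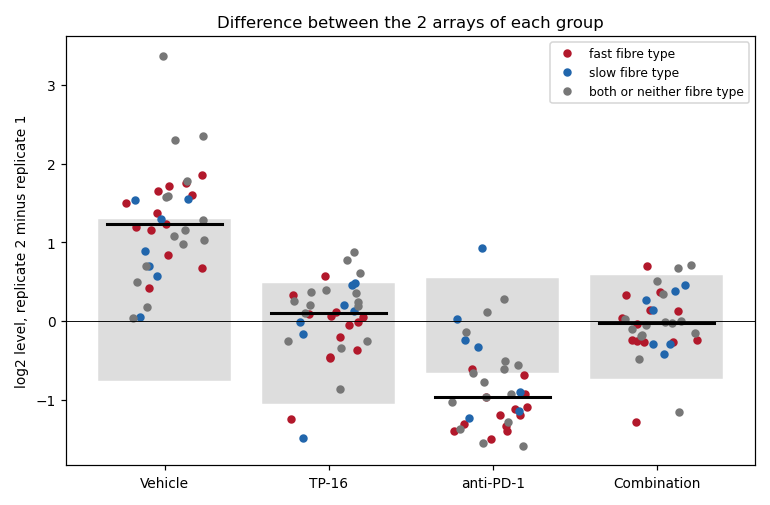
Difference between sample 2 and sample 1 of each group, in log2 units, with 1 point per skeletal muscle gene, the black line at their median and the grey box from the 5th to the 95th percentile of all tested genes. All 35 points lie above 0 in vehicle and 31 lie below 0 under anti-PD-1, while the medians under TP-16 (0.095) and the combination (-0.025) lie near 0.

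In the thin filament, Acta1 is the skeletal form of alpha-actin. Its levels were 2.71 and 3.87 in vehicle, 3.73 and 3.98 under TP-16, 4.42 and 3.14 under anti-PD-1, and 3.66 and 3.61 under the combination. The 2 vehicle samples and the 2 anti-PD-1 samples each lay more than 2-fold apart, and all groups overlapped with vehicle. Tnnc2, the calcium-binding subunit of fast troponin, was at 2.51 and 4.11 in vehicle, 3.71 and 3.70 under TP-16, 4.63 and 3.23 under anti-PD-1, and 3.57 and 3.61 under the combination. Tnni2, the inhibitory subunit of fast troponin, was at 2.73 and 4.10 in vehicle, 3.67 and 3.79 under TP-16, 4.19 and 3.10 under anti-PD-1, and 3.44 and 3.41 under the combination. Both were lowest in vehicle sample 1 and highest in anti-PD-1 sample 1, as Acta1 was. Tnnt3, the fast troponin T that anchors the complex to tropomyosin, ranged from 1.00 in vehicle sample 1 to 3.04 in anti-PD-1 sample 1.

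The slow thin filament genes are described next, and their difference from the fast ones was not tested. Tnni1, the slow inhibitory subunit, was at -0.96 and -0.91 in vehicle, -1.40 and -1.27 under TP-16, -1.66 and -0.72 under anti-PD-1, and -0.48 and -0.21 under the combination. Both combination samples lay above the other 6, and both TP-16 samples lay below both vehicle samples. Tnnt1, the slow troponin T, was at -1.30 and -0.73 in vehicle, -0.997 and -1.17 under TP-16, -0.57 and -0.81 under anti-PD-1, and -0.35 and 0.034 under the combination. Its combination samples were also the 2 highest, while vehicle sample 1 was its lowest, as for the fast genes above. Tnnc1, the slow and cardiac calcium-binding subunit, ranged from -3.43 in anti-PD-1 sample 2 to -1.46 in TP-16 sample 1, and Tpm2, a tropomyosin shared with smooth muscle, spanned a range of 0.41 over the 8 arrays. Neb, the giant protein that runs along the thin filament, was at -5.86 and -2.48 in vehicle and above background on 1 of these 2 arrays, and between -3.51 and -2.06 on the 6 treated arrays.

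In the thick filament, Myl1 encodes the alkali light chain of fast myosin. Its levels were 2.58 and 3.81 in vehicle, 3.61 and 3.66 under TP-16, 4.40 and 3.09 under anti-PD-1, and 3.78 and 3.52 under the combination. Mylpf, the regulatory light chain of fast myosin, was at 1.28 and 2.48 in vehicle, 1.94 and 2.01 under TP-16, 2.60 and 1.67 under anti-PD-1, and 1.89 and 1.65 under the combination. Vehicle sample 1 was the lowest of the 8 for both. Myh4, the myosin heavy chain of the fastest fibres (type 2B), was at 0.86 and 2.72 in vehicle, 3.48 and 2.23 under TP-16, 3.79 and 2.29 under anti-PD-1, and 3.26 and 3.63 under the combination. Its 2 vehicle samples differed by 1.85, and both combination samples lay above both vehicle samples. Mybpc2, the fast myosin-binding protein C, spanned 2.35 from its lowest to its highest array.

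The list also holds other heavy chains of fast fibres and the slow one. Myh1, the 2X heavy chain, was at 0.34 and 1.01 in vehicle, 1.53 and 2.10 under TP-16, 1.68 and 0.72 under anti-PD-1, and 2.07 and 1.82 under the combination. All 4 samples that received TP-16, alone or in combination, lay above both vehicle samples, and 1 anti-PD-1 sample lay between them. Myh2, the 2A heavy chain, ranged from 0.092 in anti-PD-1 sample 2 to 1.63 in combination sample 1. Myh7, the heavy chain of slow fibres and of the heart ventricle, was at -3.57 and -2.28 in vehicle, -3.82 and -3.62 under TP-16, -3.43 and -3.41 under anti-PD-1, and -3.79 and -4.21 under the combination. All 4 samples that received TP-16 lay below both vehicle samples, on a dim probe whose distance from background is given below. Myl2, the regulatory light chain of slow and ventricular myosin, was at -3.90 and -2.36 in vehicle, and was above background on both vehicle arrays and on 1 array of each other group. Myl3, a light chain of slow fibres and the ventricle, followed the fast genes, at -0.67 and 0.88 in vehicle, 0.60 and 0.59 under TP-16, 1.27 and 0.039 under anti-PD-1, and 0.72 and 0.43 under the combination.

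At the Z disc, where thin filaments are anchored, Actn2 encodes a cross-linking alpha-actinin. It was at -0.16 and 0.88 in vehicle, 0.70 and 1.31 under TP-16, 1.15 and 0.12 under anti-PD-1, and 0.94 and 0.46 under the combination. Tcap, which caps titin at the Z disc, was at -1.16 and 1.19 in vehicle, 0.67 and 1.07 under TP-16, 1.12 and 0.46 under anti-PD-1, and 0.97 and 0.78 under the combination. Des, the intermediate filament protein that links Z discs, was at -1.79 and -0.82 in vehicle, -0.88 and -0.68 under TP-16, -0.26 and -1.23 under anti-PD-1, and -0.71 and -0.89 under the combination. For all 3 genes vehicle sample 1 was the lowest and anti-PD-1 sample 2 the second lowest. Actn3, the alpha-actinin of fast fibres, was at -2.93 and -1.44 in vehicle, -1.002 and -1.37 under TP-16, -0.82 and -1.51 under anti-PD-1, and -0.57 and -0.83 under the combination. Ttn, the elastic protein that spans from the Z disc to the M band, was at -2.95 and -2.26 in vehicle, -1.37 and -1.71 under TP-16, -1.34 and -1.95 under anti-PD-1, and -0.89 and -1.04 under the combination. All 6 treated samples lay above both vehicle samples for Ttn, as they did for no other of the 35 genes.

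Among the calcium genes, Cacna1s encodes the voltage sensor of the muscle membrane. Its levels were -1.83 and -0.55 in vehicle, -0.20 and 0.16 under TP-16, 0.065 and -0.87 under anti-PD-1, and 0.074 and 0.076 under the combination. All TP-16 and combination samples lay above both vehicle samples. Ryr1, the calcium release channel that the sensor opens, was at -1.57 and 0.009 in vehicle, -1.69 and -1.33 under TP-16, -1.03 and -1.55 under anti-PD-1, and -2.37 and -1.70 under the combination. On this probe it was the highest in vehicle sample 2, and both combination samples lay below both vehicle samples. The other tested Ryr1 probe, which spans an exon junction, gave another order, lowest in vehicle sample 1 (-2.76) and highest in combination sample 2 (-1.25). Atp2a1, the calcium pump of fast fibres, was at -3.23 and -2.39 in vehicle, -1.83 and -2.28 under TP-16, -1.97 and -2.57 under anti-PD-1, and -2.14 and -1.44 under the combination, and its TP-16 and combination samples also lay above both vehicle samples. Pvalb, the calcium buffer of fast fibres, was at -0.83 and 0.92 in vehicle, 1.18 and 0.71 under TP-16, 1.77 and 0.44 under anti-PD-1, and 0.58 and 0.92 under the combination. Casq1, which stores calcium in the reticulum of fast fibres, ranged from -3.38 in vehicle sample 1 to -1.68 in anti-PD-1 sample 1.

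Of the energy genes, Ckm encodes the muscle creatine kinase that regenerates ATP. It was at -2.41 and -0.10 in vehicle, 0.38 and -0.48 under TP-16, 0.43 and -1.16 under anti-PD-1, and -1.19 and -0.47 under the combination. Its range over the 8 arrays was the widest in this role, and vehicle sample 1 was the lowest. Mb, the oxygen-binding myoglobin, was at -2.49 and -0.71 in vehicle, -1.13 and -0.26 under TP-16, -0.89 and -0.61 under anti-PD-1, and -0.17 and -0.19 under the combination. Pygm, which releases glucose units from glycogen in muscle, ranged from -2.22 in vehicle sample 1 to -0.81 in combination sample 2. Eno3, the muscle enolase of glycolysis, was at 5.03 and 5.06 in vehicle, 4.81 and 4.90 under TP-16, 4.88 and 4.99 under anti-PD-1, and 4.58 and 4.56 under the combination. It spanned 0.50 over all 8 arrays, and its 2 vehicle samples were the highest.

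Against vehicle, few muscle genes passed the threshold of the methods, a 2-fold difference or more and an unadjusted p up to 0.05, here from limma fitted to all tested probes. The 3 comparisons share the 2 vehicle samples. For TP-16, 2 of the 35 genes were higher (1.56% of all genes were) and 1 was lower (5.11% of all genes). Myh1 rose by 1.14 ± 0.40 (log2 ± SE, n = 2 per group, limma adjusted p of 0.155) and Ttn rose by 1.07 ± 0.31 (limma adjusted p of 0.116). Myl2 differed by -1.63 ± 0.60 (limma adjusted p of 0.166), with 1 of the 2 TP-16 arrays above background. Myl2 was tested because both vehicle arrays, where it was high, were above background, so its place among the lower genes is no support for a difference. After adjustment over all probes with Benjamini-Hochberg in limma, 0 of the 35 passed, where 0.0558% of all genes did, while 3 had an unadjusted p up to 0.05 at any fold, against 27.9% of all genes. Without vehicle sample 1, Ttn and Myh1 no longer passed, and the 3 genes that did were all lower (Myh7, Myl2 and Ryr1), where 1.1% of all genes were higher and 7.8% lower. Without vehicle sample 2, 12 genes passed and all were higher, where 4.13% of all genes were higher and 4.56% lower.

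For anti-PD-1, 0 of the 35 genes passed in limma, in either direction, against 1.9% of all genes higher and 2.24% lower. Whatever the fold, Ttn was the 1 gene with an unadjusted p up to 0.05, with a difference of 0.96 ± 0.31 (limma adjusted p of 0.297). The fast genes Myh4 and Pvalb had larger differences with wider errors, 1.25 ± 0.80 (limma adjusted p of 0.486) and 1.06 ± 0.67 (limma adjusted p of 0.482). Without vehicle sample 2, 13 genes passed, all higher, against 4.3% of all genes higher and 1.59% lower in that fit. Without vehicle sample 1, 3 passed, all lower (Myh7, Myl2 and Ryr1), against 1.36% higher and 5.5% lower.

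For the combination, 5 of the 35 genes were higher and 1 was lower, where 6.65% of all genes were higher and 10.4% lower. The share of muscle genes called higher, 5 of 35, was above that background and the share called lower was below it. Ttn rose by 1.64 ± 0.31, Actn3 by 1.49 ± 0.51, Myh1 by 1.27 ± 0.40, Cacna1s by 1.27 ± 0.48 and Atp2a1 by 1.02 ± 0.40. These errors pool the spread of all 4 groups, which was unequal. The standard deviation of Actn3 was 1.06 in vehicle and 0.185 under the combination, and that of Cacna1s 0.90 and 0.002. Myh7 fell by 1.08 ± 0.41 on the log2 scale. Its probe was above background on all 8 arrays but dim, with a mean of -2.925 in vehicle and -4.00 under the combination. The level taken as the limit of background was -3.95 in vehicle and, for the heart muscle gene Myh6, -4.77 under the combination. The part of this shift in the fall of Myh7 was not tested. With limma's adjusted p in place of the unadjusted one, Ttn was the 1 muscle gene of the 6 that passed (adjusted p of 0.0157), against 14.2% of all genes in either direction, and the other 5 lay between 0.0571 (Myh1) and 0.0998 (Atp2a1). Another 2 genes had a limma adjusted p of at most 0.05 with less than a 2-fold difference. Tnnt1 rose by 0.86 ± 0.24 (limma adjusted p of 0.0412), and Eno3 fell by 0.48 ± 0.10 (limma adjusted p of 0.0221). After quantile normalization Eno3 was at -0.21 (limma adjusted p of 0.131) and Myh7 at -0.71 (limma adjusted p of 0.218), while Ttn was at 1.82 (limma adjusted p of 0.015) and Tnnt1 at 0.88 (limma adjusted p of 0.0444). With normexp background correction Eno3 was at -0.46 (limma adjusted p of 0.00734) and Tnnt1 at 0.65 (limma adjusted p of 0.0165). Ttn, at 0.90 (limma adjusted p of 0.00751), and Myh7, at -0.88 (limma adjusted p of 0.00692), were then under the 2-fold threshold and not called. Without vehicle sample 1, Ttn was the 1 gene called higher, and 3 genes were called lower (Myh7, Ryr1 and Myl2, the last tested through vehicle alone), where 5.8% of all genes were higher and 12.9% lower. Without vehicle sample 2, 14 genes were called and all were higher, where 8.54% of all genes were higher and 8.65% lower.

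**Figure D3:**
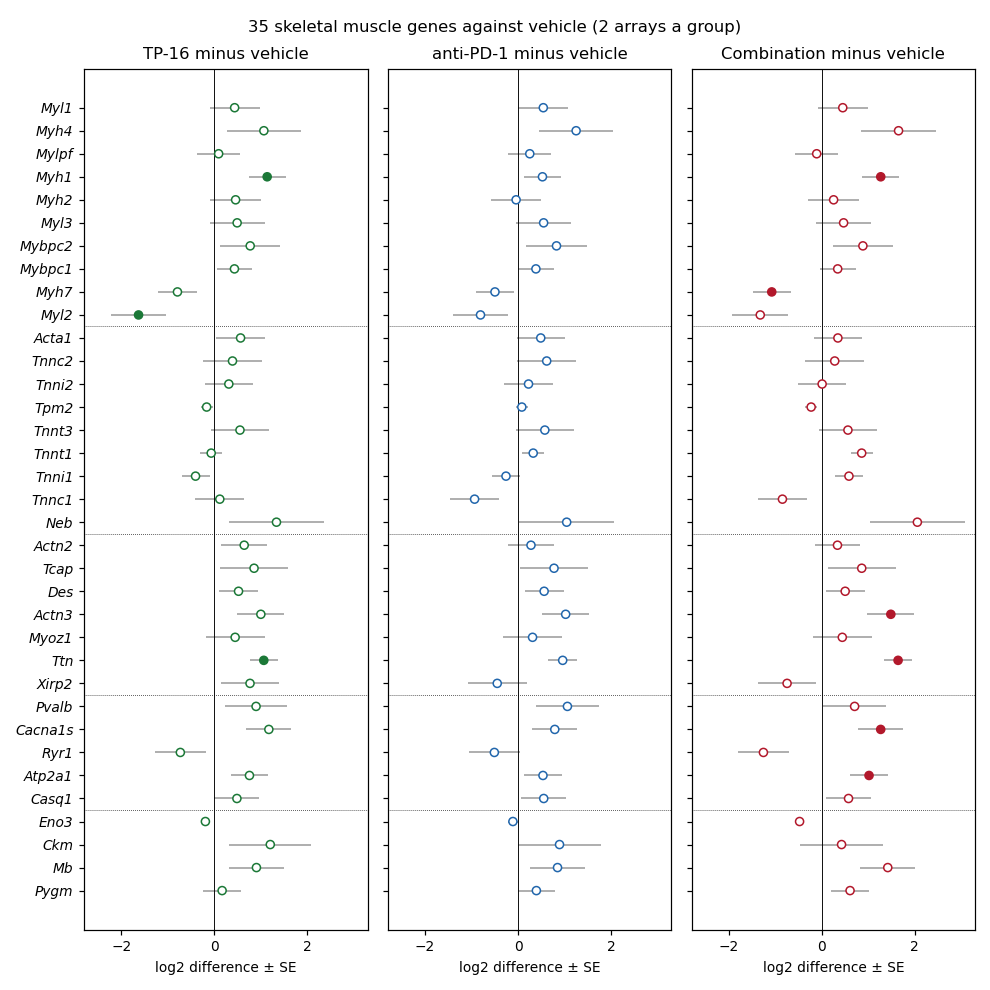
Log2 difference from vehicle of the 35 skeletal muscle genes in 3 panels, 1 for each treatment, with bars of 1 standard error from limma and n = 2 per group; filled points are 2-fold or more from vehicle with an unadjusted p up to 0.05. The TP-16 panel holds 3 filled points, the anti-PD-1 panel 0 and the combination panel 6, and Ttn (1.64 ± 0.31) is the 1 gene among the 6 with an adjusted p of at most 0.05.

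Most differences from vehicle were positive without passing the test. The median over the 35 genes was 0.49 under TP-16, beside -0.15 over all genes. It was 0.53 under anti-PD-1 (-0.099 over all genes) and 0.47 under the combination (-0.24 over all genes). The number above 0 was 28, 27 and 27 of 35. These medians rest on vehicle sample 1. Without it they were -0.18, -0.14 and -0.17, and without vehicle sample 2 they were 1.15, 1.05 and 1.15. Both TP-16 samples lay above both vehicle samples for 7 of the 35 genes and below both for 4, and 24 genes overlapped, where 16.5% of all genes lay above and 41.5% below. Under anti-PD-1, 1 gene lay above, 2 below, and 32 overlapped (15.7% and 35.3% of all genes). Under the combination 10 lay above, 6 below, and 19 overlapped (23.2% and 50.3%).

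The 13 genes of fast fibres and the 7 of slow fibres were described apart. The fast genes had medians of 0.55, 0.55 and 0.58 against vehicle in the same order of treatments, with 13, 12 and 12 of 13 above 0. The slow genes had -0.066, -0.26 and 0.34. Mean levels of the fast genes ran from -0.029 in vehicle sample 1 to 1.80 in anti-PD-1 sample 1, a 3.56-fold range, and those of the slow genes from -2.08 to -1.14 in the 2 vehicle samples, a 1.92-fold range. All 13 fast genes and all 7 slow genes were higher in vehicle sample 2 than in sample 1. Under anti-PD-1 all 13 fast genes were lower in sample 2, with a median of -1.20, and 5 of 7 slow genes were lower, with a median of -0.33. A difference between fast and slow genes was not tested.

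The combination was also compared with each agent alone. Against TP-16, limma called 0 of the 35 genes, where 4% of all genes were higher and 0.893% lower. Against anti-PD-1 it called 0, where 2.39% were higher and 2.33% lower. Whatever the fold, an unadjusted p up to 0.05 was reached by 3 genes against TP-16 (Tnni1, Tnnt1 and Eno3) and by 2 against anti-PD-1 (Tnni1 and Eno3). Tnni1 differed by 0.99 ± 0.30 from TP-16 (limma adjusted p of 0.157) and by 0.84 ± 0.30 from anti-PD-1 (limma adjusted p of 0.156). The medians over the 35 genes were -0.007 and 0.023. The median against anti-PD-1 was 0.50 without anti-PD-1 sample 1 and -0.50 without anti-PD-1 sample 2, while leaving out 1 array moved that against TP-16 between -0.085 and 0.054. The departure from additivity, the effect of the combination less the summed effects of the single agents, passed a fold of 2 and an unadjusted p for Tnni1 alone, where 2.79% of all genes were higher and 0.488% lower. Its median over the 35 genes was -0.46, with 5 genes above 0, and vehicle enters it with the opposite sign from the comparisons above. The median was 0.14 without vehicle sample 1, 0.016 without anti-PD-1 sample 1, -1.10 without vehicle sample 2 and -0.93 without anti-PD-1 sample 2.

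A further 50 skeletal muscle genes, written as a separate list by what they do in muscle, gave a like order of arrays. Of these 45 were tested, and their mean was lowest in vehicle sample 1 (-2.61), -1.55 in vehicle sample 2, and highest in anti-PD-1 sample 1 (-1.46). Synpo2l and Cox6a2 were the brightest probes of that list. Synpo2l, a Z disc protein, was at 3.21 and 5.88 in vehicle, 4.59 and 5.83 under TP-16, 4.35 and 3.52 under anti-PD-1, and 4.35 and 5.53 under the combination. Cox6a2, the heart and muscle form of a cytochrome oxidase subunit, was at 2.97 and 3.04 in vehicle, 2.18 and 2.26 under TP-16, 2.23 and 2.24 under anti-PD-1, and 1.90 and 1.95 under the combination, with both vehicle samples the highest, as for Eno3. For the combination against vehicle, 6 of the 45 rose and 1 fell, where 6.65% of all genes were higher and 10.4% lower. The 7 also had a limma adjusted p of at most 0.05, a share near the 14.2% of all genes. Named after their values were seen, Myom2 (an M-band protein) rose by 1.95 ± 0.38, Cmya5 by 1.84 ± 0.47 and Lmod3 (a nucleator of thin filaments) by 1.64 ± 0.41. Fbxo32, the muscle ubiquitin ligase atrogin-1, was below background in both vehicle samples. A bound against the limit of background put it at least 3.51-fold higher under the combination. The limma adjusted p of 0.011 belongs to its measured log2 difference of 2.24, without the bound. The other 2 that rose, Mypn and Asb2, were also below background in vehicle, with bounds of 1.55-fold and 1.73-fold, both under the 2-fold threshold. Fbxo32, Mypn and Asb2 were tested through treated groups, where they were high, so their place among the 6 is no support for a difference. Cox6a2 was the 1 gene that fell, by 1.08 ± 0.099. Without vehicle sample 1, 4 of the 45 genes were higher and 5 lower, and without vehicle sample 2, 18 were higher and 1 lower. Over all genes these shares were the 5.8% and 12.9% and the 8.54% and 8.65% given above. With normexp background correction Myom2 was the 1 gene called.

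Genes of muscle stem cells, regeneration and embryonic fibres also had their lowest mean in vehicle sample 1, and their highest under the combination. Of 18 genes, 17 were on the array and 11 were tested. The mean of the 11 was -3.11 and -2.29 in vehicle and -1.37 and -1.30 under the combination, and the 2 combination samples were the highest of the 8. Myh8, the perinatal heavy chain and the brightest probe of the list, was at 1.33 and 2.55 in vehicle, 3.24 and 2.59 under TP-16, 3.48 and 2.20 under anti-PD-1, and 3.15 and 3.26 under the combination. It followed the 35 mature genes (r = 0.88 with their mean over 8 arrays), as did Myf6 (0.91) and Cdh15 (0.73), and the other 8 tested genes of the list had r between -0.55 and 0.55. Myl4, the embryonic and atrial light chain, was at 0.94 and 1.27 in vehicle, 1.15 and 1.25 under TP-16, 0.92 and 1.48 under anti-PD-1, and 1.96 and 1.85 under the combination, and rose under the combination by 0.80 ± 0.22 (limma adjusted p of 0.0387), less than 2-fold.

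For the combination against vehicle, 4 of the 11 rose at the unadjusted threshold (Myog, Myh3, Chrnd and Chrng) and 1 fell (Chrna1). They were named after their values were seen, beside the same 6.65% and 10.4% of all genes. Myog, Myh3 and Chrng were above background on 0 vehicle arrays and Chrnd on 1. All 4 were therefore tested through treated groups, where they were high. Their place among the higher genes, and their part in the list's mean, is no support for a difference from vehicle. Myh3, the embryonic heavy chain of newly formed fibres, was at -6.35 and -4.77 in vehicle, -3.15 and -4.57 under TP-16, -6.21 and -3.13 under anti-PD-1, and -0.62 and 0.54 under the combination. Neither vehicle array was above background, and by the bound the combination samples were at least 15-fold higher. The limma adjusted p of 0.02 belongs to the measured log2 difference of 5.52, without the bound. Adjusted p beside the bounds that follow likewise belong to the measured differences. Myog, the myogenic factor that drives myoblasts to differentiate, was at -4.68 and -4.32 in vehicle, -3.02 and -3.01 under TP-16, -3.77 and -3.07 under anti-PD-1, and -1.85 and -1.52 under the combination, which made the combination at least 4.81-fold higher than vehicle (limma adjusted p of 0.0102). Chrng, the fetal gamma subunit of the muscle acetylcholine receptor, was at least 2.28-fold higher (limma adjusted p of 0.0385), and Chrna1, the alpha subunit of that receptor, fell by 1.29 ± 0.38 (limma adjusted p of 0.0491). Chrnd, the delta subunit, rose by 1.12 ± 0.36 (limma adjusted p of 0.0624). With the single agents, 2 of the 11 were called under TP-16, where 1.56% of all genes were higher and 5.11% lower. Under anti-PD-1, 1 was called, where 1.9% of all genes were higher and 2.24% lower. Myog was called higher under TP-16, at least 1.91-fold (limma adjusted p of 0.0834), and under anti-PD-1, at least 1.44-fold (limma adjusted p of 0.252). Both bounds lie under the 2-fold threshold that the measured differences passed. Chrna1 was called lower under TP-16, at -1.07 ± 0.38 (limma adjusted p of 0.16).

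Myog and Myh3 were still called in the combination against vehicle without either vehicle sample or either combination sample. With normexp background correction Myh3 was called, at a log2 difference of 2.49, and Myog was not, at 0.94, both smaller than the bounds given above. Against TP-16, the combination was higher for Myog by 1.33 ± 0.27 (limma adjusted p of 0.125) and for Myh3 by 3.82 ± 1.15 (limma adjusted p of 0.155). Against anti-PD-1, the differences were 1.74 ± 0.27 (limma adjusted p of 0.0722) and 4.63 ± 1.15 (limma adjusted p of 0.089), with 1 of the 2 anti-PD-1 arrays above background for Myh3. Pax7, the factor that marks satellite cells, and Myf5 were above background on 0 arrays, and Myod1 on 1.

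**Figure D4:**
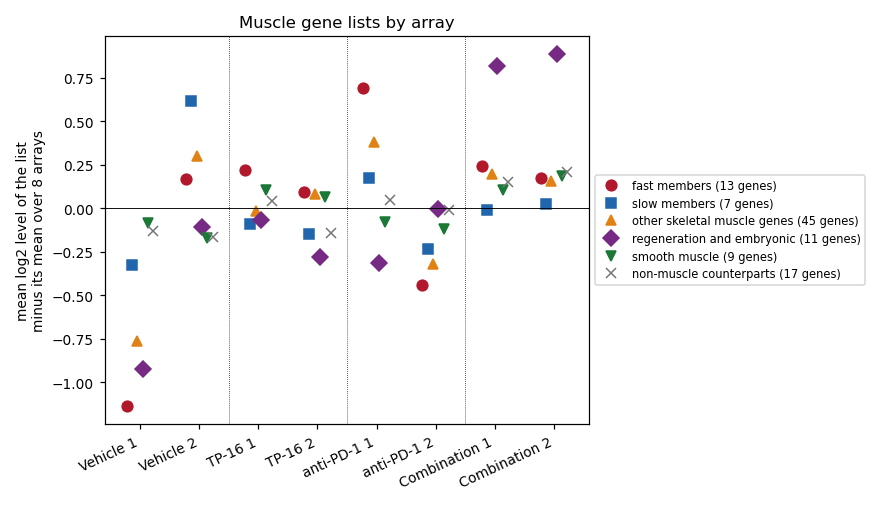
Mean log2 intensity of 6 gene lists on each of the 8 arrays, relative to the list's own mean over the 8 arrays. The fast, slow and other skeletal muscle lists are lowest in vehicle sample 1, the regeneration list is lowest there too and is highest in the 2 combination samples (-1.37 and -1.30 before centring), and smooth muscle spans a range of 0.36.

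Lists of other tissues at the edge of a flank tumor were set beside the muscle genes. The mean of the smooth muscle list spanned 0.36 over the 8 arrays, and the mean of 17 non-muscle relatives of the muscle genes, such as cytoplasmic myosins and the brain form of creatine kinase, spanned 0.37. Single genes of the latter list moved further than its mean. Under the combination 4 of the 17 were called higher (Ckb, Pygl, Myh10 and Myl9) and 0 lower, beside 6.65% and 10.4% of all genes, and 9 had a limma adjusted p up to 0.05 at any fold, as did 35.6% of all genes. Among those 9, chosen after their values were seen, the cytoplasmic myosin Myh10 rose by 2.60 ± 0.39 (limma adjusted p of 0.011), the creatine kinase Ckb rose by 1.56 ± 0.45 (limma adjusted p of 0.0464), and the cytoplasmic actin Actb fell by 0.78 ± 0.14 (limma adjusted p of 0.0149). Adipose tissue genes (11 of 13 tested genes above background on all arrays) had means of -1.83 and -1.03 in vehicle, lowest in vehicle sample 1 as for muscle, and -0.79 and -0.86 under anti-PD-1. Genes of the dermis, tendon and fascia were at -1.17 and -0.59 in vehicle and at -0.33 and -0.026 under the combination, the 2 highest of the 8 arrays. Under the combination 2 of 9 were called higher against vehicle (Dpt and Fmod), where 6.65% of all genes were. Fmod rose by 1.62 ± 0.17 (limma adjusted p of 0.0102). Peripheral nerve genes were at -1.49 and -1.54 in vehicle and at -1.18 and -0.74 under the combination, highest in combination sample 2. The means of both lists were higher in each combination array than in either vehicle array, as were Myog and Myh3. The heart muscle genes spanned 1.00 and were lowest in TP-16 sample 2. Epidermis and hair follicle genes were highest in TP-16 sample 2 (1.18) and anti-PD-1 sample 2 (1.37) and lay between -1.83 and -0.43 on the other 6 arrays. Of these skin genes 7 of 13 on the array were tested, and Krt1, Lor and Krt15 were above background on 3 arrays each. The summed linear level of the 35 muscle genes, in units of the array's 75th percentile, was 77.9 and 142 in vehicle, 125 and 127 under TP-16, 175 and 98.0 under anti-PD-1, and 119.5 and 117 under the combination. Genes of red blood cells ran against the muscle genes within vehicle, with means of 4.38 in sample 1 and 3.75 in sample 2, the 2 highest of the 8 arrays. Their means were 2.34 and 2.07 under TP-16, 2.63 and 2.58 under anti-PD-1, and 1.71 and 2.06 under the combination. In each of the 3 comparisons with vehicle all 6 tested genes were called lower, where 5.11%, 2.24% and 10.4% of all genes were in that order. The median differences were -1.94, -1.42 and -2.26, and for the combination all 6 also had a limma adjusted p up to 0.05. Several of them are near-identical globin copies, so they are not independent. The part of these tissues in the values of the muscle and regeneration genes was not tested.

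The likeness of each muscle gene to the rest of the list was measured as Pearson's r over the 8 arrays with the mean of the other 34 genes. The arrays share groups and scaling, so r is a description here. It was over 0.8 for 21 of the 35 genes, 10 of the 13 fast genes, 2 of the 7 slow genes (Myl3 and Mybpc1) and 9 of the other 15. The highest were Tnnt3 (0.99), Myl3 (0.98), Casq1 (0.97) and Mybpc2 (0.97). The 9 genes under 0.5 included 5 of the slow genes (Tnnt1, Myl2, Tnnc1, Myh7 and Tnni1), with Xirp2, Ryr1, Tpm2 and Eno3, and the lowest was Eno3 at -0.35. The other tested probe gave 0.86 for Ryr1 and 0.76 for Tpm2, so their low likeness holds for the brightest probe. Of all tested genes outside the list, the 10 closest to the muscle mean had r between 0.95 and 0.98. They include genes known from muscle, the ubiquitin ligase Trim63, the mitochondrial creatine kinase Ckmt2, the phosphoglycerate mutase Pgam2, the caveolin Cav3, the ribosomal protein Rpl3l, Art1 and Apobec2. The others were Klra22, of a family of natural killer cell receptors, and 2 long noncoding transcripts.

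Different probes of a gene did not always give the same difference. Of 16 genes with more than 1 probe, the 3 tested probes of Tnnt3 gave 0.53 to 0.56 for the combination against vehicle, and the 2 of Tnnt1 gave 0.86 and 0.92. For Ttn, the brightest probe, on the minus strand of chromosome 2 at 76542077 to 76542136 in mm9, rose by 1.64, and the other 3 tested probes gave 0.95, -0.012 and -1.03, the last with a limma adjusted p of 0.057. Des was given by a probe at 0.50, and its other probe fell by 1.45 (limma adjusted p of 0.0177). Ryr1 gave -1.26 with the brightest probe and 1.02 with the other (limma adjusted p of 0.0522). Tpm2 gave -0.23 and 1.02 (limma adjusted p of 0.0475). A dimmer probe also gave a negative difference for Mybpc1 (-2.09 against 0.34 for the brightest), Mylpf (-1.36 against -0.11), Myl1 (-0.74 against 0.45) and Myh4 (-0.51 against 1.65), with limma adjusted p from 0.0943 to 0.101. For these 8 genes the values and calls hold for the probe that was used. The dimmer probes that fell lay low under the combination, at -4.14 and -4.73 for Des and -3.75 and -4.21 for Ttn. Those of Mybpc1 were at -4.43 and -4.93, of Mylpf -3.70 and -4.10, of Myl1 -3.59 and -3.71, and of Myh4 -3.955 and -3.76. The level taken as the limit of background was -3.95 in vehicle and, for Myh6, -4.77 under the combination. Its part in these differences was not tested.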

How the data were processed

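Expression was measured in 8 CT26 tumor samples, 2 per group, on one-colour Agilent SurePrint G3 mouse arrays. The labels name column kits for the RNA, the methods TRIzol. Scanner files deposited by the authors hold, for each spot, a processed intensity from Agilent Feature Extraction (version 10.7.1.1 per the submitters' processing notes), background-subtracted by that software, and positions in mm9. Normalized log2 values, also deposited by the authors and made with GeneSpring per the methods, were used as an alternative, and their kind of normalization is not given in the sources used here.

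Control spots and the 959 of 59305 spots with an outlier mark were removed, which left out 38 probes and none of the muscle genes, and the spots of each probe were averaged. Intensities were scaled to the 75th percentile of their array (371.1 to 733.6) and taken to log2. Testing was limited to the 31912 probes, of 21497 gene names, that the scanner marked well above background in both samples of some group. All 8 arrays entered 1 limma fit (version 3.58.1, R 4.3.3, data.table package version 1.17.8) with 4 group means and 4 residual degrees of freedom, and p-values were adjusted over all tested probes with Benjamini-Hochberg. A gene was called when 2-fold or more different with an unadjusted p up to 0.05, as in the methods, and 6 comparisons were made. Where a group was below background on both arrays, a lower bound of the fold was computed against the dimmest probe above background on each array. It depends on that probe, and the adjusted p beside a bound comes from the limma fit to the measured values. The number of arrays limits the precision.

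The members and lists were chosen with earlier results of these data known. By rule, all 8 values were printed for the 3 genes with the highest mean in each of 5 roles and those called after adjustment, and genes outside the list were the 10 closest to the members' mean and the 2 with the highest mean of other lists. Further genes with all values in the text (Tnni1, Tnnt1, Myh1, Myh7, Myl3, Actn3, Atp2a1, Myh3 and Myog) were chosen after their values were seen. The alternatives were normexp background correction (offset 50), quantile normalization, adjusted p, other filters on dim probes, a replicate block, the authors' log2 values, the methods' t-test, a fit of the compared groups only, all probes of a gene, and leaving out each array. The calculations were tested on simulated data.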

Additional observations from a re-analysis of the deposited data

Results flagged for a closer look

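Tnni1, the inhibitory subunit of slow troponin, was picked out because the combination departed from the sum of the single agents by an unadjusted test. The departure from additivity was 1.25 ± 0.43 on the log2 scale (limma adjusted p of 0.615, unadjusted p of 0.027 in limma with 2 samples per group). TP-16 and anti-PD-1 alone gave differences from vehicle of -0.40 and -0.26, and the combination gave 0.59. The result did not pass adjustment over all probes.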

How the results depend on the processing

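The lowest and the highest array were vehicle sample 1 and anti-PD-1 sample 1 under each of the 6 settings in which they were computed, with a range of 1.05 to 1.44 between them. The number of muscle genes called moved with the setting. With adjusted p it was 0 for TP-16 (3 in the report), 1 for the combination (6 in the report) and 0 for the departure from additivity (1 in the report). With normexp background correction it was 1, 3 and 0 in the same order, and with the methods' t-test 0 for TP-16 and 1, Ttn, for the combination. For anti-PD-1, quantile normalization and the authors' log2 values each called 1 gene, Ttn. Fitting the compared groups alone gave 2 genes for the combination against vehicle, 1 (Xirp2) against TP-16 and 1 (Neb) against anti-PD-1. When a single array was left out, assuming that the lone sample of a group varies like the others, the counts ran from 1 to 12 for TP-16, 0 to 13 for anti-PD-1, 1 to 14 for the combination, 0 to 3 and 0 to 1 for the combination against TP-16 and anti-PD-1, and 0 to 5 for the departure from additivity. The cause of these shifts was not tested. Apart from adjusted p and leaving out a vehicle sample, the share of all genes called was not computed in these settings. Under quantile normalization all calls were higher, 3 for TP-16 and 5 for the combination, and the median over all probes moved from -0.20 to -0.013 for the combination. Among differences of single called genes under these settings, 99 stayed past the threshold, 78 did not, and 0 reversed. Only genes called in the main fit were followed. Leaving out an array outside a comparison left the difference itself unchanged, so these settings are not independent checks.

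With the replicate number as a block, 3 muscle genes were called for TP-16, 5 for the combination, 1 for the departure from additivity and 0 in the other comparisons. The share of all genes called in that fit was not computed, so these counts have no background to be set against. For the combination, Atp2a1 and Cacna1s were then not called and Mb was. The deviations of same-numbered samples correlated at -0.19 to 0.29 over 31912 probes, so the numbers were not taken to pair the samples.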
